A study of Macaca mulatta with 17 samples.

Results

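Fibroblast growth factors (FGFs) and their receptors were followed in fetal rhesus macaque uterus at 2 gestational ages, with and without maternal exposure to bisphenol A (BPA), a plastics chemical with weak estrogenic activity. The members were 6 secreted ligands (FGF1, FGF2, FGF7, FGF9, FGF10 and FGF18) and 4 receptors (FGFR1, FGFR2, FGFR3 and FGFR4). They were found by their symbols in the probe descriptions of the array, and each gene was represented by whichever of its probes was brightest on average over the 17 arrays. These 10 genes were among 16847 named genes, and 17 of the 20217 probes measured them. A further 3 probes mention a member's symbol without being assigned to it: 2 belong to FGFR1OP and FGFR1OP2, and 1 is an expressed sequence tag described as similar to FGF1.

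Pregnant rhesus monkeys carrying female fetuses received a daily piece of fruit with deuterated BPA at 400 µg per kg body weight, or with ethanol as the vehicle control. In the GD100 groups dosing ran from gestational day 50 to 100, and fetuses were delivered by caesarean section on day 100 (5 controls and 5 BPA-exposed). In the GD165 groups dosing began on day 100 and lasted until vaginal delivery at days 165 to 168 (4 controls and 3 BPA-exposed), after stillborn fetuses had been left out by the study. RNA came from 1 of the 2 sides of each uterus, which was divided lengthwise from fundus to cervix, and each fetus gave 1 single-color Agilent array, with 17 arrays on 6 slides. Gestational age and mode of delivery changed together and cannot be told apart. The GD100 and GD165 BPA groups also differed in the window of exposure. The tissue is a whole organ, so fewer cells of a type and less RNA per cell cannot be told apart.

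A level is the log2 processed signal of a probe, averaged over its 2 spots and brought to a common 75th percentile on every array (12.62 on this scale). The scanner software marks spots that stand well above background, which were 83.8 to 89.0% of each array, and 9 of the 10 members carried that mark on all 17 arrays. The exception was FGF1, which carried it on 8 arrays. Levels are compared between arrays for 1 probe at a time, since the brightness of different probes is not on a common scale. Changes were tested with limma over all 20217 probes, and a change was called at a Benjamini-Hochberg adjusted p under 0.01. With 3 to 5 arrays a group, their number sets how precise a value can be.

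FGFs are secreted proteins that bind receptor tyrosine kinases together with heparan sulfate chains on the cell surface, and they signal mainly through RAS and the MAP kinases. In many developing organs FGF7 and FGF10 are made by mesenchyme and act on the IIIb splice form of FGFR2 in the neighboring epithelium, whereas FGF9 and FGF18 act mainly on the IIIc splice forms of receptors in mesenchyme. In the uterus this exchange between stroma and epithelium is known for its part in the growth and differentiation of the epithelium.

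Between GD100 and GD165 in controls, FGF9 rose and FGF2 fell, both by less than 2-fold, and no receptor was called by its brightest probe. Thus 2 of 10 members were called, beside 11.5% of all probes, 1 of them higher (6.32% of all probes) and 1 lower (5.20%). At an adjusted p under 0.05 there were 4 members, which add FGF1 and FGF10 (21.2% of all probes), and the same 4 had an unadjusted p under 0.05 (33.1%). The groups did not overlap for 3 members, FGF1, FGF2 and FGF9, beside 19.4% of all probes. The median change of the 10 members was 0.0031 on the log2 scale, beside 0.0046 over all probes. Among BPA-exposed fetuses FGF10 fell and FGF1 rose with age, which again made 2 of 10 members called, beside 9.68% of all probes, 1 of them higher (4.82%) and 1 lower (4.86%). At an adjusted p under 0.05 there were 4 members, which add FGFR1 and FGFR4 (21.0% of all probes), and the same 4 had an unadjusted p under 0.05 (34.5%). The groups of that comparison did not overlap for 6 members, beside 27.2% of all probes, and the median change was -0.15, beside -0.05 over all probes. With 10 members these counts are a description of the family beside the whole array.

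Comparing BPA with control at GD100, limma called 0 of 10 members and 0% of all probes, no member (0) had an unadjusted p under 0.05 (3.79% of all probes did), and the groups overlapped for every one of the 10 members (0.782% of all probes did not overlap). At GD165 limma again called 0 of 10 members and 0% of all probes. There FGF10 and FGF9 had an unadjusted p under 0.05, 2 of 10 members beside 8.61% of all probes, and only FGF10 had groups that did not overlap, 1 of 10 beside 7.31% of all probes. The test of whether the BPA effect differed between the ages called 0 members and 0% of all probes, with 1 member (FGF10) and 7.83% of all probes at an unadjusted p under 0.05. A test on the scanner's error estimates alone, which leaves out the spread between fetuses, passed 3, 3 and 2 members in these comparisons. It passed 1491, 2494 and 2345 of all 20217 probes in the same comparisons. The limma changes of all members in the 4 comparisons of groups are drawn with their intervals.

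**Figure D1:**
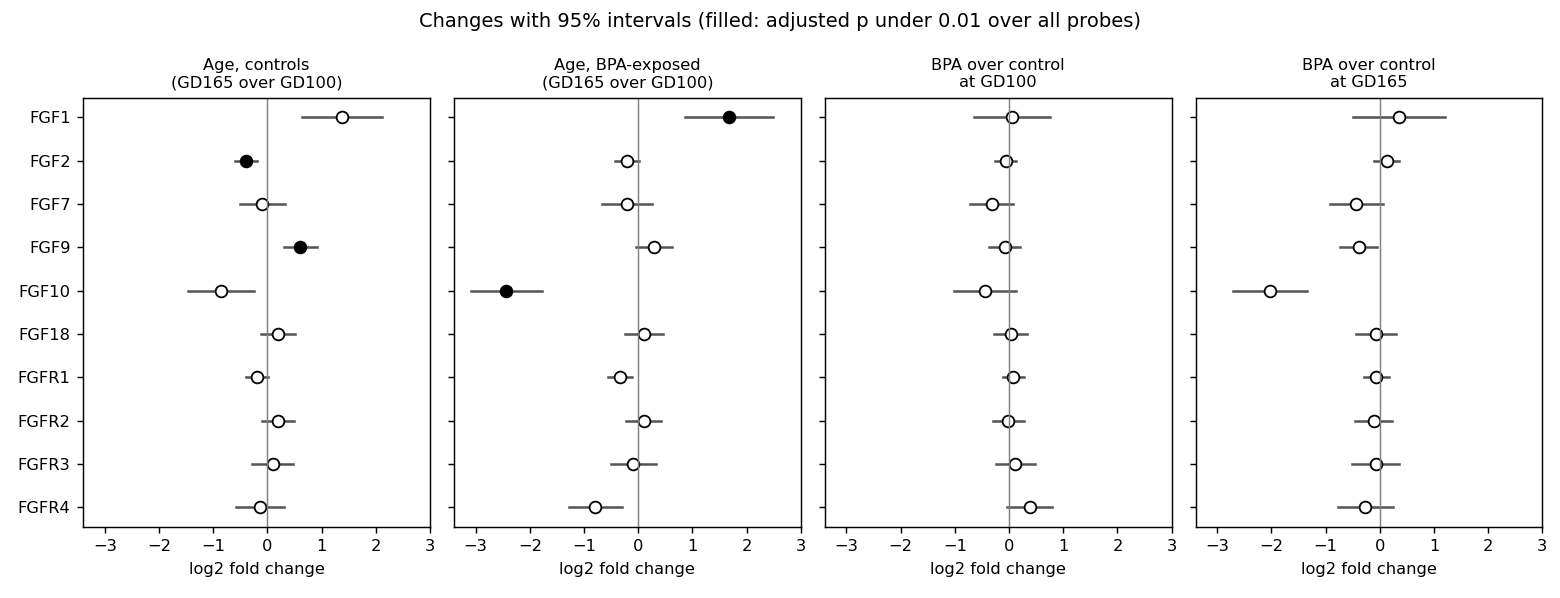
Log2 fold change (x axis) of each FGF ligand and receptor (y axis, brightest probe) in the 4 comparisons, with 95% intervals from limma; filled points passed an adjusted p of 0.01 over all 20217 probes. FGF10 in BPA-exposed fetuses lies farthest from 0, at -2.43 with age and at -2.02 against GD165 controls, and the second of these did not pass.

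FGF10, the mesenchymal ligand that drives branching and growth of epithelium through FGFR2 IIIb, was measured by 1 probe. Its sequence is shown because the largest difference among the members rests on these 60 bases. They are the end of the coding sequence of the gene, at chr5:44340860-44340919 on the minus strand in the array's annotation, which follows human chromosome numbers and names no human build.

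FGF10 probe A_01_P011742: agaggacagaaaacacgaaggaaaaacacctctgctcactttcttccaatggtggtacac

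The probe was designed on the human transcript and 45% of its bases are G or C. Whether every base matches the macaque transcript was not tested. It was well above background on all 17 arrays, although its signals were low.

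In the GD100 controls the FGF10 levels of animals 1 to 5 were 6.64, 7.62, 6.24, 7.41 and 7.37. In the GD100 BPA group they were 6.49, 6.65, 7.02, 5.93 and 6.95. The ranges of both GD100 groups overlapped along most of their length. GD165 controls 1, 3, 5 and 6 had levels of 6.00, 6.67, 5.97 and 6.16, and GD165 BPA animals 3, 4 and 5 had 3.88, 4.28 and 4.38. Every GD165 BPA array was thus lower than each of the other 14 arrays, and the gap between the GD165 groups, from 4.38 to 5.97, was wider than the range within either. In the scanner's linear units the GD165 BPA signals were 17.1, 21.4 and 21.7, and the GD165 control signals ran from 61.1 to 92.7.

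In order of their means, FGF10 levels were 7.06 ± 0.59 (SD, n = 5) in GD100 controls, 6.61 ± 0.44 (n = 5) in GD100 BPA, 6.20 ± 0.33 (n = 4) in GD165 controls and 4.18 ± 0.27 (n = 3) in GD165 BPA. Only the last step of this order exceeded the spread within the groups beside it. At GD165 the BPA mean was 4.06-fold below the control mean, a log2 difference of -2.02 (SE 0.32, 95% interval -2.71 to -1.34). Its unadjusted p was 1.48e-05, and its adjusted p of 0.118 by limma did not pass the threshold but equalled the smallest of any probe in that comparison. The adjustment can give several probes the same value, so FGF10 need not have had the smallest unadjusted p. An exact two-sided permutation test of this gene alone gave p = 0.0286 over 35 regroupings, the smallest that 3 against 4 arrays allow. The family was chosen with earlier results of these arrays known, so this single-gene p is not independent evidence.

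Leaving out each array in turn, the FGF10 difference at GD165 stayed between -2.13 and -1.87, with adjusted p values of 0.124 to 0.418. On the only slide that held both GD165 groups, 2 BPA arrays lay 1.93 below 1 control array on the log2 scale (difference -1.93). Normexp background correction with an offset of 50, which compresses low signals, gave -0.88. The size of this difference therefore depends on how the background is corrected. At GD100 the BPA mean was lower by a log2 difference of -0.45 (95% interval -1.01 to 0.12, adjusted p = 0.9999), which is within the spread of the groups. The BPA effects at the 2 ages differed by -1.58 (SE 0.42, 95% interval -2.47 to -0.69), with an unadjusted p of 0.00185 and an adjusted p of 0.482.

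With age FGF10 fell 5.40-fold in BPA-exposed fetuses, a log2 change of -2.43 (SE 0.31, 95% interval -3.09 to -1.78, adjusted p = 1.56e-04 by limma). This call held without any 1 array and under every alternative listed in the closing section, with adjusted p values up to 0.00391, although normexp correction gave a change of -1.09. On the slide that held 1 array of each of these groups the difference was -2.57. In controls the age difference was -0.86 (SE 0.28, adjusted p = 0.0428), which did not pass. The control groups overlapped, and the 2 slides that held both gave opposite signs, 0.43 and -1.37, from 1 array of each group. Leaving out each control array in turn gave adjusted p values of 0.0111 to 0.104.

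**Figure D2:**
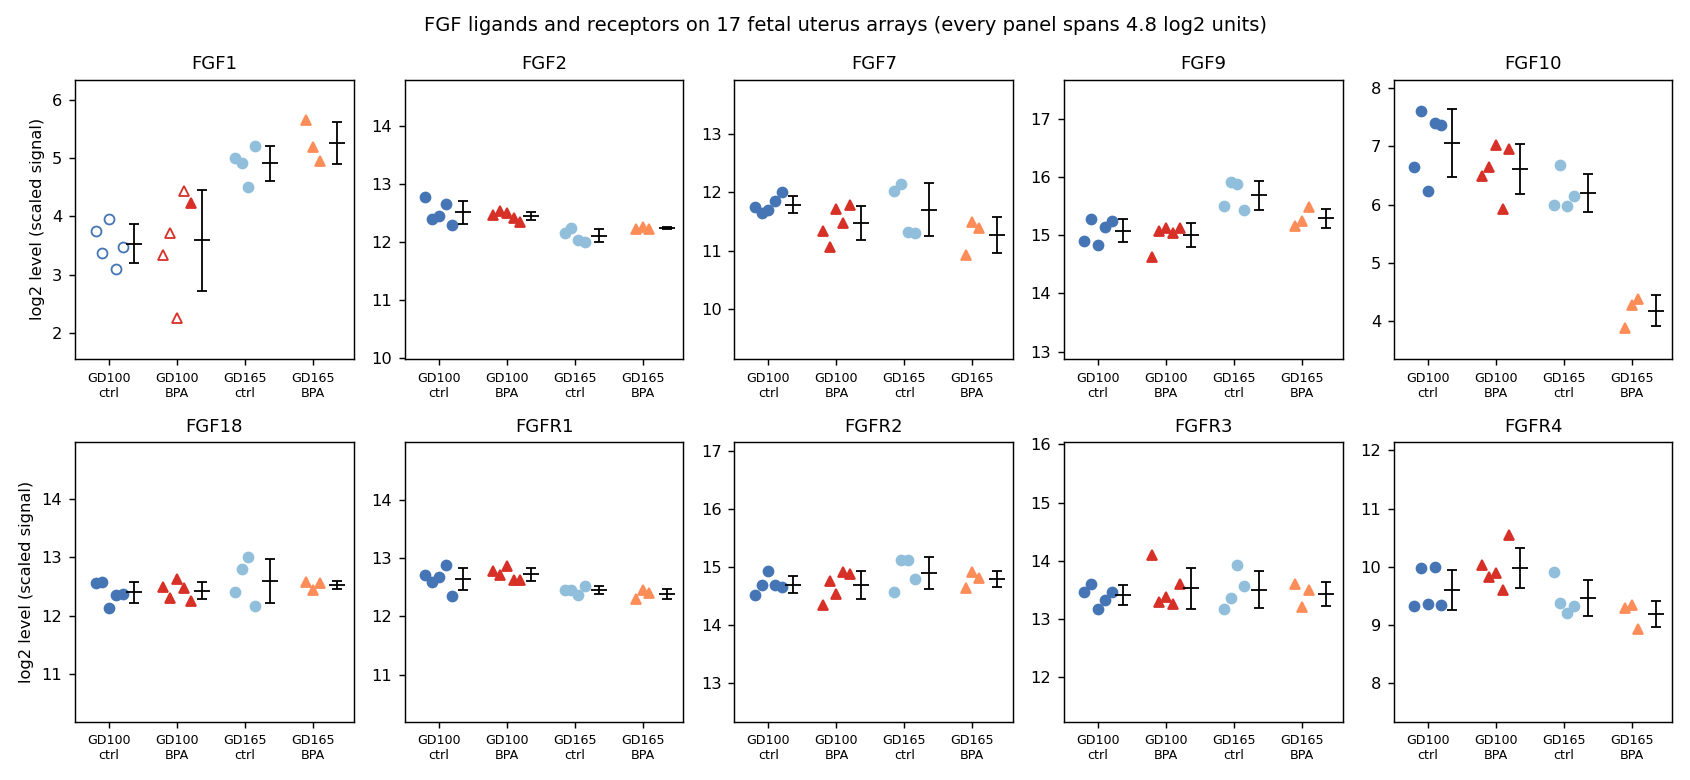
Log2 level (y axis) of each member on all 17 arrays by group (x axis: control circles and BPA triangles at GD100 and GD165), with black marks for mean and SD; open symbols are arrays where the probe was not well above background. FGF10 lies at 3.88 to 4.38 in the GD165 BPA group and at 5.93 or above elsewhere, and FGF1 is well above background mainly at GD165.

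Markers of other cell types were set beside FGF10. At GD165 the luminal and glandular epithelium list (8 of its 11 genes matched) was lower with BPA for 8 of 8 genes. Its median change was -0.45, with 0 called by limma and 2 at an unadjusted p under 0.05, beside 8.61% of all probes. Its mean log2 level was 11.91 to 12.16 on the control arrays and 11.27 to 11.76 on the BPA arrays, which did not overlap. The same list stood at 10.81 to 11.66 on the GD100 control arrays, where FGF10 was at 6.24 or above. Those GD100 arrays also differ in age and mode of delivery. The part of this list in the FGF10 difference was not tested.

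The stratified squamous list (keratins and desmosomal genes of cervix and vagina, 10 genes matched) was lower with BPA for 9 of 10 genes at GD165. Its median change was -1.06, with 0 called by limma and 5 at an unadjusted p under 0.05, beside 8.61% of all probes. Its level stood apart in GD165 controls 5 and 6, at 9.47 and 11.85, while all other arrays lay between 8.26 and 8.95. Without both of these arrays the FGF10 difference was -2.16 (adjusted p = 0.421). GD165 controls 1 and 3 had squamous levels of 8.30 and 8.705, within the range of the BPA arrays, and FGF10 levels of 6.00 and 6.67. These are few arrays, and the part of the squamous list in the FGF10 difference was not tested.

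Stroma markers ran from 15.45 to 15.97 on the GD165 control arrays and from 15.70 to 15.95 on the BPA arrays, with a median change of 0.09. Skeletal muscle markers ran from 9.11 to 13.75 and from 8.22 to 12.90, with a median change of -1.01 that also did not separate the groups. The part of both lists in the FGF10 difference was not tested.

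**Figure D3:**
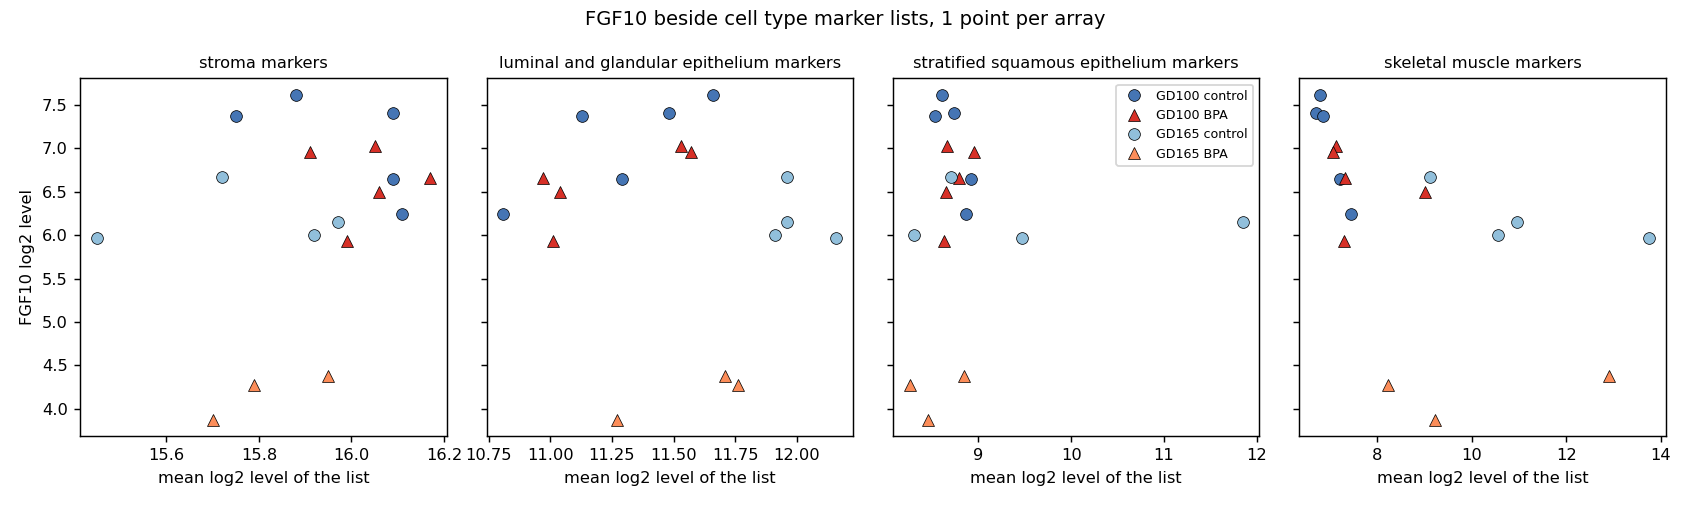
FGF10 log2 level (y axis) against the mean log2 level of 4 marker lists (x axes), 1 point per array with control circles and BPA triangles. The 3 GD165 BPA arrays lie at the bottom of every panel, within the range of the other arrays for stroma and skeletal muscle and below the GD165 controls for luminal and glandular epithelium.

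FGF7, or keratinocyte growth factor, is the other mesenchymal ligand of FGFR2 IIIb. Its level ran from 11.65 to 12.00 in GD100 controls, from 11.06 to 11.79 in GD100 BPA, from 11.30 to 12.15 in GD165 controls and from 10.92 to 11.49 in GD165 BPA. All of these ranges overlapped with their neighbors, and no step in the order of the means exceeded the spread. The GD165 controls were divided, with animals 1 and 3 at 12.03 and 12.15 and animals 5 and 6 at 11.31 and 11.30. Animals 5 and 6 are also those whose squamous marker levels stood above all other arrays. BPA lay below control by a log2 difference of -0.43 at GD165 (95% interval -0.91 to 0.05, adjusted p = 0.618) and of -0.32 at GD100 (95% interval -0.72 to 0.08, adjusted p = 0.9999).

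A second FGF7 probe followed the first closely, with a Pearson's r of 0.934 between their deviations from the group means over 17 arrays. The age change in controls was -0.09 by the first and 0.17 by the second probe, with adjusted p values of 0.804 and 0.686. The sign of FGF7's change with age was therefore not settled by these probes. In BPA-exposed fetuses both were negative, at -0.21 and -0.09.

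FGF9, a ligand made by epithelia and mesothelia of several developing organs and by endometrium, had levels of 14.91, 15.28, 14.83, 15.13 and 15.25 in GD100 controls. The GD165 controls stood at 15.49, 15.91, 15.89 and 15.43, all above the highest GD100 control. This rise was 1.52-fold, a log2 change of 0.60 (SE 0.14, 95% interval 0.30 to 0.90, adjusted p = 0.00663 by limma).

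The FGF9 call was lost, with adjusted p values up to 0.0238, when GD100 control 1, 3 or 4 or GD165 control 3 or 5 was left out, while the change stayed between 0.53 and 0.69. With slide as a fixed block the change was 0.61 and the adjusted p 0.0416. Within the 2 slides that held both control groups the differences were 1.08 and 0.25. Beside this rise, 4 of 8 genes of the luminal and glandular epithelium list also rose with age in controls, with a median change of 0.73, and the part of this in the FGF9 value was not tested.

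BPA-exposed fetuses had FGF9 levels of 14.63, 15.07, 15.13, 15.04 and 15.13 at GD100 and of 15.16, 15.24 and 15.48 at GD165. The groups did not overlap, but the change of 0.29 (SE 0.15, adjusted p = 0.188) did not pass. GD100 BPA animal 1 was the lowest of all 17 arrays. At GD165 the BPA group lay 1.31-fold below control, a log2 difference of -0.39 (95% interval -0.73 to -0.05, unadjusted p = 0.0291, adjusted p = 0.532). Both GD165 groups overlapped, since 1 BPA array lay above 1 control array, and the exact two-sided permutation p of 0.143 was above 0.05. At GD100 the difference was -0.08 (95% interval -0.36 to 0.21).

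FGF18, which acts largely on mesenchymal FGFR3 and FGFR2 forms in skeleton and lung, had group means from 12.40 to 12.59 and no gap in their order beyond the spread. Its age changes were 0.20 in controls and 0.10 in BPA-exposed fetuses, with adjusted p values of 0.408 and 0.722. The BPA differences were 0.03 at GD100 and -0.06 at GD165. A second FGF18 probe gave age changes of 0.34 and 0.30 (adjusted p = 0.0954 and 0.176) and a GD165 BPA difference of 0.10, opposite in sign to the first probe.

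FGF1, or acidic FGF, binds all FGF receptors and lacks a classical signal peptide. GD100 controls had levels of 3.75, 3.37, 3.96, 3.10 and 3.48, none of them (0 of 5) well above background. GD165 controls had 5.00, 4.92, 4.51 and 5.21, all 4 well above background and all above every GD100 control. Since the GD100 level has only a bound, the difference is stated as at least 2.24-fold, with an adjusted p of 0.0107 that did not pass. That bound compares the GD165 control mean with, on each GD100 array, the higher of the probe's own value and the lowest signal of any probe well above background.

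The GD100 BPA levels of FGF1 were 3.33, 3.71, 2.25, 4.43 and 4.23, with 1 of 5 arrays well above background. At GD165 they were 5.65, 5.19 and 4.95, with 3 of 3 above it. No overlap was seen, and the measured change of 1.67 (SE 0.38, adjusted p = 0.00649 by limma) was called. Since 4 of the 5 GD100 BPA arrays were not well above background, the size of this change is not settled. The call was lost, with adjusted p values up to 0.0338, without GD100 BPA animal 1 or 2 or any of the 3 GD165 BPA animals. A second probe of identical sequence, printed elsewhere on the array, had adjusted p values of 0.0321 in controls and 0.00919 in BPA-exposed fetuses, with the same limit on their size. The differences between both probes had an SD of 0.35 on the log2 scale over 17 arrays, which is the scatter of this dim signal between spots. BPA differed from control by 0.06 at GD100, where most arrays were not above background, and by 0.35 at GD165 (95% interval -0.49 to 1.20). The expressed sequence tag described as similar to FGF1 lies on another chromosome than the FGF1 probes in the array's annotation. It changed with age by 0.17 in controls and by 0.23 in BPA-exposed fetuses (adjusted p = 0.690 and 0.587).

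FGF2, or basic FGF, is held in extracellular matrix by heparan sulfate and acts on stroma and vessels. Its level was 12.77, 12.39, 12.44, 12.65 and 12.30 in GD100 controls and 12.16, 12.24, 12.03 and 12.00 in GD165 controls. The highest GD165 control lay just below the lowest GD100 control. The fall was 1.32-fold, a log2 change of -0.40 (SE 0.09, 95% interval -0.60 to -0.20, adjusted p = 0.00675 by limma). The call was lost, with adjusted p values up to 0.0262, without GD100 control 1, 3 or 4 or GD165 control 1, 5 or 6. With slide as a fixed block the change was -0.30 (adjusted p = 0.0738), and within the 2 shared slides it was -0.19 and -0.14.

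In BPA-exposed fetuses FGF2 was at 12.46, 12.53, 12.50, 12.41 and 12.34 at GD100 and at 12.22, 12.26 and 12.23 at GD165. These groups did not overlap either, although the change of -0.21 (SE 0.10, adjusted p = 0.154) did not pass. Arrays at GD165 were thus the 7 lowest of all 17 for FGF2. BPA and control differed by -0.06 at GD100 (95% interval -0.25 to 0.13) and by 0.13 at GD165 (95% interval -0.10 to 0.35).

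Among the receptors, FGFR2 is known for 2 splice forms that share most of their sequence, IIIb in epithelium and IIIc in mesenchyme. Its brightest probe, present on the array as 2 copies of the same sequence, lies nearer the end of the gene. By its position in the array's annotation another probe lies farther inside the gene. The description of this internal probe names a transcript variant of FGFR2. No annotation of exons was used here, so which splice forms each probe measures was not tested.

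By the brightest probe FGFR2 stood at 14.53, 14.69, 14.93, 14.69 and 14.66 in GD100 controls and at 14.56, 15.13, 15.11 and 14.79 in GD165 controls, an overlap with a change of 0.20 (SE 0.14, adjusted p = 0.353). Its identical copy gave 0.24, and the differences between both copies had an SD of 0.05 over 17 arrays. By the internal probe GD100 controls stood at 9.62, 9.45, 9.72, 9.50 and 9.37 and GD165 controls at 9.41, 9.38, 9.08 and 8.92. That change was -0.34 (SE 0.15, 95% interval -0.65 to -0.02, adjusted p = 0.122). Neither probe passed, and their changes had opposite signs.

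The difference between both probes on the same array was therefore compared, a measure chosen after its values had been seen. It was 5.17 ± 0.15 (SD, n = 5) in GD100 controls and 5.70 ± 0.38 (n = 4) in GD165 controls, a change of 0.54 on the log2 scale with an exact two-sided permutation p of 0.0397 over 126 regroupings. Over the 4 comparisons of this FGFR2 measure the adjusted p was 0.159, which does not pass. Such differences were also tested between FGFR1 probes, with exact permutation p values of 0.2 to 0.683. The adjustment does not include those FGFR1 tests. Of the GD165 controls, animals 3, 5 and 6 lay above every GD100 control and animal 1 lay among them. In BPA-exposed fetuses the values were 5.13 ± 0.29 (n = 5) and 5.52 ± 0.33 (n = 3), a change of 0.40 with an exact permutation p of 0.143. Between BPA and control the measure differed by -0.04 at GD100 and by -0.18 at GD165, both with overlapping groups. The deviations of both probes from their group means were nearly unrelated over the 17 arrays (Pearson's r 0.104), whereas those of the identical copies were not (0.973). This was not particular to FGFR2, since the brightest FGFR1 probe had r of -0.058 and 0.389 with the other FGFR1 probes. The BPA differences of FGFR2 by the brightest probe were -0.01 at GD100 (95% interval -0.29 to 0.27) and -0.11 at GD165 (95% interval -0.45 to 0.23).

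**Figure D4:**
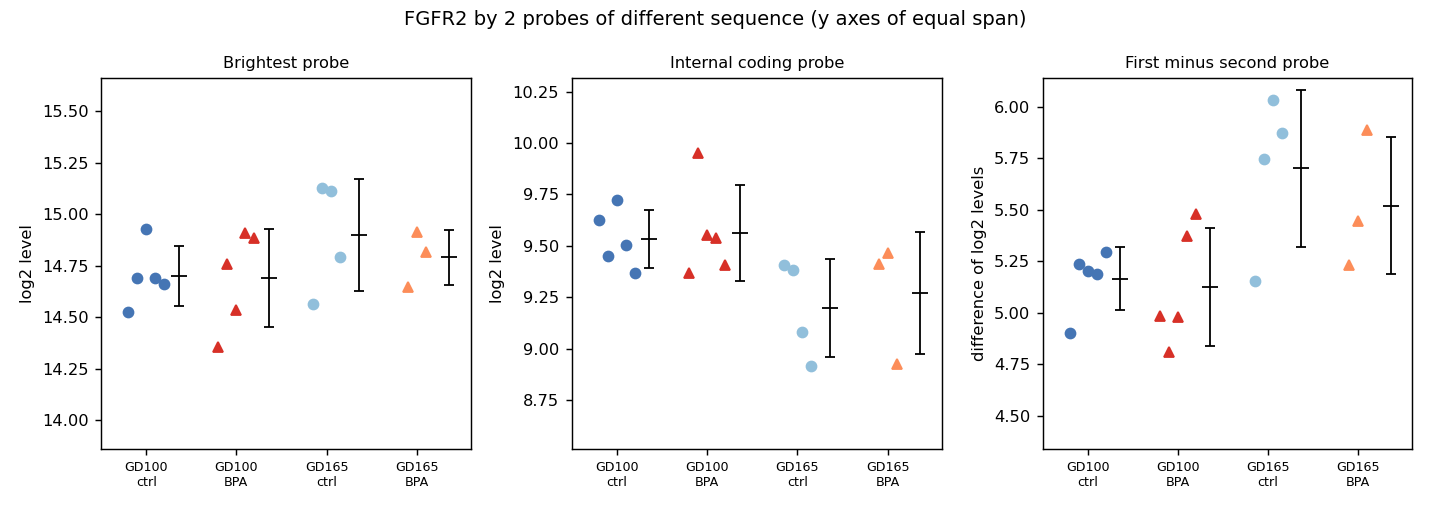
Log2 levels of FGFR2 by its brightest probe (left) and by the internal probe (middle), and the difference between them on each array (right), by group on the x axis (control circles, BPA triangles) with mean and SD in black. The difference was 5.17 in GD100 controls and 5.70 in GD165 controls, with 1 GD165 control among the GD100 values.

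FGFR1, the receptor form most widespread in mesenchyme, was at 12.71, 12.60, 12.67, 12.89 and 12.35 in GD100 controls and at 12.45, 12.46, 12.36 and 12.52 in GD165 controls. These overlapped, and the change of -0.20 (SE 0.10, adjusted p = 0.170) did not pass. BPA-exposed fetuses stood at 12.79, 12.71, 12.88, 12.62 and 12.63 at GD100 and at 12.30, 12.45 and 12.41 at GD165 without overlap. The change of -0.34 (SE 0.10, 95% interval -0.56 to -0.12, adjusted p = 0.0310) also missed the threshold. Both other FGFR1 probes, which name other transcript variants, had negative age changes too, of -0.45 and -0.30 in controls and of -0.52 and -0.29 in BPA-exposed fetuses, with adjusted p values of 0.0613 to 0.120. At GD165 the BPA difference was -0.06 by the brightest probe and 0.14 by each of the others, so that its sign was not settled, with adjusted p values of 0.833 to 0.922.

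FGFR3, known for restraint of cartilage growth and for expression in epithelia, had group means between 13.41 and 13.53, with overlap of all groups. Its changes were 0.10 with age in controls, -0.09 with age in BPA-exposed fetuses, 0.12 with BPA at GD100 and -0.07 with BPA at GD165. The 95% interval of the last was -0.51 to 0.36. The highest array was GD100 BPA animal 1, at 14.10.

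FGFR4, which binds FGF19-type hormones with a Klotho co-receptor and is prominent in liver and in skeletal muscle precursors, was at 9.33, 9.98, 9.36, 9.99 and 9.34 in GD100 controls. GD100 BPA animals had 10.03, 9.83, 9.89, 9.60 and 10.54, GD165 controls 9.91, 9.38, 9.21 and 9.32, and GD165 BPA animals 9.29, 9.34 and 8.93. The GD165 BPA arrays were all below the GD100 BPA arrays, and every other neighboring pair of groups overlapped. With age FGFR4 differed by -0.79 in BPA-exposed fetuses (SE 0.23, 95% interval -1.27 to -0.31, adjusted p = 0.0228), which did not pass, and by -0.14 in controls (adjusted p = 0.693). At GD100 the BPA difference was 0.38 (95% interval -0.04 to 0.80, unadjusted p = 0.0723) and at GD165 -0.27 (95% interval -0.77 to 0.24). The test of the difference between those BPA effects gave -0.65 (unadjusted p = 0.0529, adjusted p = 0.637).

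Other genes of the pathway were taken from a list of 73, of which 65 were matched to a probe. In controls 3 of 65 rose and 5 fell with age, beside 11.5% of all probes called, and in BPA-exposed fetuses 2 rose and 1 fell, beside 9.68%, while the list's medians were 0.02 and -0.02 on the log2 scale. In the 2 BPA comparisons and in the test between them limma called 0 of 65. An unadjusted p under 0.05 was reached by 1 of 65 at GD100 (3.79% of all probes), by 6 at GD165 (8.61%) and by 6 in the test between them (7.83%). The list's medians there were 0.01 at GD100 and -0.0011 at GD165.

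Of 16 other FGF genes, 11 were well above background on all arrays and FGF5, FGF6, FGF20 and FGF23 on none. Those that rose with age in controls were FGF11 and FGF14, intracellular homologs that bind sodium channels and are not secreted receptor ligands. FGF14 rose 3.13-fold in controls, from 4.65 ± 0.42 (SD, n = 5) to 6.30 ± 0.58 (n = 4), with an adjusted p of 0.00164. In BPA-exposed fetuses its change was 1.75-fold with an adjusted p of 0.104, which did not pass. FGF11 rose 1.46-fold in controls (adjusted p = 0.00837) and 1.53-fold in BPA-exposed fetuses (adjusted p = 0.00793). GD165 BPA differed from GD165 control by -0.73 for FGF14 (adjusted p = 0.589).

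Heparan sulfate, which FGFs need to bind their receptors, is made and trimmed by the 8 enzymes of the list. SULF1, an extracellular sulfatase that removes the 6-O-sulfate needed for FGF signaling complexes, fell 1.77-fold in controls (adjusted p = 3.41e-04) and 2.03-fold in BPA-exposed fetuses (adjusted p = 2.19e-04). HS6ST2, which adds that sulfate, fell 1.80-fold in controls (adjusted p = 7.48e-04), from 14.53 ± 0.15 (n = 5) to 13.68 ± 0.37 (n = 4). These were the 2 of 8 called in controls, and in BPA-exposed fetuses SULF1 was the only 1 of 8.

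Of 10 co-receptors and binding proteins, GPC3, a glypican of the embryonic cell surface, fell 2.12-fold in controls (adjusted p = 7.28e-04). SDC4, a syndecan that presents FGF2, rose 1.46-fold in controls (adjusted p = 0.00528) and 1.63-fold in BPA-exposed fetuses (adjusted p = 0.00233). KL, the Klotho co-receptor, had the largest BPA difference of the list at GD165 among genes above background, 0.88 with an adjusted p of 0.532. GPC3 differed by 0.63 there (adjusted p = 0.465).

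Inside the cell, NRAS fell 1.59-fold with age in controls (adjusted p = 0.00773) and was the only 1 of 16 adaptors and kinases called. SPRED1, an inhibitor of the RAS pathway, fell 1.29-fold (adjusted p = 0.00988) and was the only 1 of 12 feedback inhibitors called, a group that includes the sproutys and dual-specificity phosphatases. Of the 3 target transcription factors limma called 0 in either age comparison. In each, 1 had an unadjusted p under 0.05, beside 33.1% of all probes in controls and 34.5% in BPA-exposed fetuses. At GD100 the BPA differences included 0.37 for FGF17 and 0.30 for FGF22, both with an adjusted p of 0.9999. Between the BPA effects at the 2 ages the differences included -0.84 for FGF14 and -0.79 for FGF17, with adjusted p values of 0.694 and 0.583.

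With age the marker lists moved as well, beside the member changes given above. In controls, where 11.5% of all probes were called, 5 of 5 cycling cell genes fell (median -1.26) and 1 of 8 stroma genes fell. Called higher there were 4 of 8 luminal and glandular epithelium, 3 of 8 smooth muscle and 3 of 6 skeletal muscle genes. So were 1 of 6 endothelium and 1 of 5 leukocyte genes. Of 10 stratified squamous genes 0 were called and 4 had an unadjusted p under 0.05, beside 33.1% of all probes. In BPA-exposed fetuses 5 of 5 cycling cell genes fell (median -0.99), and 2 of 8 luminal and glandular epithelium, 2 of 8 smooth muscle, 1 of 6 skeletal muscle, 1 of 6 endothelium and 1 of 5 leukocyte genes rose, beside 9.68% of all probes called. There limma called 0 of 8 stroma and 0 of 10 stratified squamous genes. In each of these lists 1 gene had an unadjusted p under 0.05, beside 34.5% of all probes. Stroma and smooth muscle markers stood at mean levels of 15.45 or above on every array, and the luminal and glandular epithelium list at 10.81 or above. The part of these lists in the age changes of FGF1, FGF2, FGF9 and FGF10 was not tested.

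The genes whose pattern was most like 3 of the members were found by Pearson's r of deviations from the group means over 17 arrays, among 12796 named genes well above background on all arrays. For FGF10 they were CTNNBL1 (r 0.806), HNRNPC (0.797) and RASEF (0.789). For FGF7 they were DKFZP564D172 (0.883), SHOX2 (0.871) and PCP4 (0.842), and for FGFR2 MRPL47 (0.851), FLJ10597 (0.851) and PPP2R2B (0.830). Between members themselves r ran from -0.53 for FGF1 and FGF10 to 0.65 for FGF2 and FGFR1, and FGF9 and FGF10 had 0.61. These values share their arrays and their scaling and are given as a description.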

How the data were processed

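The samples were RNA extracts of 17 fetal uteri, each on 1 rhesus macaque array (Agilent, single-color). Per the labels and methods the authors extracted signals with Agilent Feature Extraction 9.5 at 1-color defaults (background subtraction, error model), and the deposited values are linear intensities per spot, not scaled between arrays. The deposited table of all arrays was identical to these intensities in 711467 of 711467 values.

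Here processed signals were taken to log2 and averaged over both spots of a probe, without control and outlier spots, and each array was scaled to its 75th percentile. limma 3.58.1 in R 4.3.3 was fitted to 4 groups without further terms, two-sided, with p values adjusted by Benjamini and Hochberg over all 20217 probes and a threshold of 0.01. The error-weighted ANOVA of the study's methods was not repeated. The code was tested on simulated data.

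The members, gene lists and tests were chosen with earlier results of these data known. Named genes were the 10 members, their other probes, list genes past the threshold, the 3 largest differences where none passed (1 gene is not reported here), and the 3 genes most like FGF10, FGF7 and FGFR2. Replicate numbers did not pair the animals: correlations of same-numbered deviations ran from -0.17 to 0.12. Nothing used here says how RNA batches were made, so p values measure the spread between these fetuses. Positions and gene names come from the array's annotation, and no genome was used.

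Alternatives were normexp background correction, scaling to the median, quantile normalization, no scaling, a filter on dim probes, outlier spots kept, averaging all probes of a gene, the compared groups only, a trended robust prior, weights from the error model, the error model alone, a block for slide or for replicate number, calls at 0.05 and leaving out each array. Chosen after seeing the data were FGF1 by the sequence tag and the fit without both GD165 controls with high squamous markers.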

Additional observations from a re-analysis of the deposited data

Results flagged for a closer look

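FGF9 in GD100 BPA animal 1 had a level of 14.63 (14.629 to 3 decimals), apart from the other 4 arrays of its group, of which the nearest was at 15.04. The gap took 0.827 of the range of the group, which is past the limit of Dixon's test for 5 samples. It was the only 1 of 30 groups of values flagged in this way, and chance flags about 1 in 20 such groups. Without this animal the BPA difference of FGF9 at GD100 was 0.014 in place of -0.08.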

How the results depend on the processing

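FGF10 kept its sign in all 133 combinations of comparison and alternative, but part of these could not change its fold change. They were calls at 0.05, FGF1 by the sequence tag, averaging over its 1 probe and the filter on dim probes. The trended robust prior, the error model alone and the compared groups only also left its fold change as it was. Keeping outlier spots left it the same within rounding. Over all members 1219 of 1330 combinations kept the sign and the side of the threshold, and 60 changed sign, of which 0 were called under the alternative. These totals also include combinations that could not change a member's value. The count of members called with age in controls was 2, beside 2328 of 20217 probes. It became 3 with normexp correction, the filter on dim probes, the trended robust prior or the error weights (2499, 2555, 2624 and 2537 probes). It became 1 with median scaling, no scaling, the compared groups only or the replicate block (2346, 1531, 1172 and 958 probes). It became 4 with the error model alone or a threshold of 0.05 (7157 and 4279 probes). It was 0 with slide as a fixed block (1233 probes) and 0 without both GD165 controls with high squamous markers (1116 probes). The filter on dim probes tested 17149 probes. The count with age in BPA-exposed fetuses was 2, beside 1956 probes. It became 1 with normexp correction, the compared groups only, slide as a fixed block or the replicate block (2187, 1176, 512 and 1444 probes). It was also 1 with FGF1 by the sequence tag (1956 probes). With the error model alone or a threshold of 0.05 it was 4 (7511 and 4255 probes). With the error model alone the counts for BPA were 3 at GD100 (1491 of all probes), 3 at GD165 (2494) and 2 between the ages (2345). Leaving out 1 array gave 0 to 2 members with age in controls (1512 to 2271 probes) and 1 to 2 in BPA-exposed fetuses (994 to 1535 probes). The replicate block changed no count in the BPA comparisons.

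The cause of each change of sign was not tested. With age in controls the values with a changed sign were FGF7 at 0.041 by the mean over probes, FGF7 at 0.23, FGFR3 at -0.0069 and FGFR4 at 0.12 with slide as a fixed block, and FGF7 at 0.30, FGFR3 at -0.14 and FGFR4 at 0.045 without both GD165 controls. With age in BPA-exposed fetuses they were FGFR3 at 0.088 without scaling and FGFR2 at -0.025 by the mean over probes. For BPA at GD100 they were FGF1 at -0.059 with quantile normalization, -0.25 with slide as a fixed block, -0.010 with slide as a random block and -0.17 by the sequence tag, FGFR2 at 0.019 with quantile normalization and 0.017 by the mean over probes, and FGF18 at -0.0074 without scaling. For BPA at GD165 no scaling gave FGF18 0.095, FGFR1 0.097, FGFR2 0.050 and FGFR3 0.086, the mean over probes FGF18 0.018 and FGFR1 0.070, the fixed slide block FGF18 0.043, FGFR2 0.052 and FGFR3 0.037, the replicate block FGFR3 0.058, the sequence tag FGF1 -0.11, and the fit without both controls FGFR3 0.16. Between the BPA effects no scaling gave FGF7 0.086, FGF18 0.10, FGFR1 0.055, FGFR2 0.10 and FGFR3 0.0075, normexp FGF1 -0.043, the fixed slide block FGFR2 0.16 and the fit without both controls FGFR3 0.043. Without scaling the median of all probes itself was 0.13 with age in BPA-exposed fetuses, 0.14 for BPA at GD165 and 0.16 between the effects.

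Leaving out 1 array changed signs within these ranges. With age in controls FGF7 ran from -0.24 to 0.040 and FGFR3 from -0.040 to 0.21. With age in BPA-exposed fetuses FGFR3 ran from -0.18 to 0.051. For BPA at GD100 FGF1 ran from -0.15 to 0.40, FGF2 from -0.12 to 0.0031, FGF9 from -0.14 to 0.014, FGF18 from -0.033 to 0.079, FGFR2 from -0.066 to 0.073 and FGFR3 from -0.027 to 0.18. For BPA at GD165 FGF18 ran from -0.21 to 0.076 and FGFR3 from -0.18 to 0.064. Between the BPA effects FGF1 ran from -0.043 to 0.50, FGF7 from -0.25 to 0.060 and FGF18 from -0.24 to 0.044. At GD100 only 1 of 10 arrays measured FGF1 well above background, which limits any statement on it at that age.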
